A study of Mus musculus with 2 samples.

Results

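The cells described here were 2200 EGFP-carrying cells of tumour 2 that held RNA of the interferon-induced genes Cxcl10 and Ifi47. They made up 22.6% (95% exact binomial interval 21.7 to 23.4) of the 9745 EGFP cells of that tumour. They are called glioma cells for their EGFP and the limits below, though some lay in clusters led by myelin or immune genes. Tumour 2 had 18596 of the 32898 barcodes of the study, of which 15555 held at least 500 genes and a mitochondrial share under 20%. All levels per cell are unique molecular identifiers (UMIs) per 10000 mouse-gene UMIs of that cell. An interferon cell had at least 20 for EGFP and at least 2 for Cxcl10 and Ifi47 together, from at least 2 UMIs. Cells were left out at 10 or more for cartilage genes (Col2a1, Col9a1, Col9a3, Matn1) or for mitotic genes (Mki67, Top2a, Ube2c, Aspm, Prc1, Cenpf), at 5 or more for the C1q genes of macrophages, and with any UMI of Cd3d, Cd3e or Cd3g. Of the 3865 EGFP cells inside these last limits, 56.9% were interferon cells, 442 (11.4%) had no UMI of either gene and served as comparison cells, and the other 1223 lay between.

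Both libraries were droplet single-cell RNA-seq of 3-month glioblastomas (GBM) of the NPCTKO model in C57BL/6 mice, 1 tumour per library. In this model Cas9, luciferase and guides against tumour suppressors, Trp53 and Nf1 among them, enter embryonic neocortical progenitors on piggyBac plasmids by electroporation in utero, with EGFP or DsRed as the lineage label. The hosts carried Tek-Cre;Ai14 or Tbx18 CreERT2/+;Ai14, which mark host lineages that include endothelial or mural cells with tdTomato. The labels do not tie a host to a library. With 1 library per tumour and cells chosen by their own readout, no difference between cells was tested. Ratios of summed UMIs are given with exact Poisson intervals at 95%, which cover counting error only.

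Interferons bind cell-surface receptors whose JAK kinases activate STAT factors, and these switch on interferon-stimulated genes. Interferon gamma, made mainly by T and NK cells, induces guanylate-binding proteins, immunity-related GTPases, MHC class I and II and the chemokines Cxcl9 and Cxcl10. Type I interferons act through factors that bind repeated GAAA half-sites in promoters, and the 2 programmes overlap widely. Cxcl10 is a chemokine for T cells, and Ifi47 is an immunity-related GTPase.

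The half-site pair GAAANNGAAA is shown for genes on which the results turn, since it is the letter pattern that factors of this pathway bind. The windows below are 60 bases each from RefSeq promoters of GRCm38.p6 (250 bases before to 50 after the start), printed along the gene's strand with the pair, read on either strand, in capitals.
Cxcl10, chr5:92349068-92349127, minus strand: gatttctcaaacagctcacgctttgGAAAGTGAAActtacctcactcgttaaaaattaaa
Gbp2, chr3:142620579-142620638, plus strand: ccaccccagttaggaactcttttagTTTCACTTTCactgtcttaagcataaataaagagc
Igtp, chr11:58199496-58199555, plus strand: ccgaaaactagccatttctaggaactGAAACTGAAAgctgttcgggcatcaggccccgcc
Irgm1, chr11:48871421-48871480, minus strand: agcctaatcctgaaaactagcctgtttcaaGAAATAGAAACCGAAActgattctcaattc
B2m, chr2:122147523-122147582, plus strand: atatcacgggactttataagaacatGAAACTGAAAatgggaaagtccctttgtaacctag

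The pair was present in 3.44% of all 32851 promoter windows. It was present in 12 of the 13 interferon GTPase windows that the table held and in 15 of 29 windows of type I interferon-stimulated genes. The MHC class I pathway had it in 5 of 20 windows and sterol synthesis in 2 of 16. The window of Ifi47 did not hold these letters, and Irgm1 held 2 overlapping pairs. A letter match describes the sequence and says nothing of binding.

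The files held 295366782 mouse-gene UMIs in tumour 2. Interferon cells were deeper than comparison cells, with a median of 17642.5 against 10152.5 UMIs and 4001 against 3101.5 genes, and their median mitochondrial share was 3.95% against 5.32%. Their median EGFP level was 123 (quartiles 45.7 to 263), against 52.8 (32.3 to 114) in comparison cells. It was 7.77 in cells with at least 3 Cd3 UMIs, C1q under the limit and EGFP under the minimum of 20, called the T-cell gate below. The macrophage gate (C1q at 20 or more) also held only cells under this EGFP minimum, with no Cd3 UMI. The lower EGFP of both gates was thus set by the way they were chosen. RNA of one cell type was also seen in cells gated as another: 18.1% of 739 cells with at least 3 Cd3 UMIs met the EGFP minimum. The median C1q level was 1.83 in interferon cells, 2.33 in comparison cells and 1.86 in the T-cell gate, against 155 in the macrophage gate. Whether free RNA or doublets gave these values was not tested. Scrublet's automatic threshold marked 1 barcode, so doublets were handled by removing the highest scores as an alternative. Markers of glioma cells summed to 2510 UMIs per 1000000 mouse-gene UMIs of the group (CPM) in interferon cells and 2916 in comparison cells. Those of oligodendrocytes summed to 1459 and 1246, of astrocytes to 316 and 383, of endothelial cells to 18.1 and 25.3, of mural cells to 21.5 and 4.18, of monocytes to 90.2 and 48.8, of red cells to 125 and 34.9 (all 4 markers higher in each of these last 3) and of T and NK cells to 14.98 and 22.3, with 3 of the 7 T and NK markers found, the Cd3 genes of the rule, at 0. Their part in the ratios below was not tested. The libraries shared 51 barcodes, 6 of them interferon cells.

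Cxcl10 and Ifi47 chose the cells, and their values are given as a description. The 2 genes together reached a median of 7.09 (quartiles 3.74 to 15.7, highest 426) in interferon cells. Both were detected in 1707 cells, Ifi47 without Cxcl10 in 365 and Cxcl10 without Ifi47 in 128. The Cxcl10 level was spread far more widely, with a median of 1.88 and a highest cell at 400, against 3.87 and 31.4 for Ifi47. After thinning 3440 gated cells to 5000 UMIs each, Ifi47 was seen in 68.3% of the cells with Cxcl10 and in 46.4% of the others.

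The cells chosen by one gene alone differed in what else they held. In cells with Ifi47 and no Cxcl10, the interferon GTPases summed to 3440 CPM, near the 3783 of cells with both. In the 128 cells with Cxcl10 and no Ifi47, they summed to 1201. Those cells held 217 CPM of the chemokine gene Ccl2, from 230 UMIs, and 90.6 of Cxcl1, from 96 UMIs. Cells with both genes held 124 and 38.0 CPM, and cells with Ifi47 alone 22.96 and 4.20. The list of NF-kB responders summed to 842 CPM in cells with Cxcl10 alone, 799 in cells with both and 603 with Ifi47 alone. The 128 cells were also shallow, with a median of 6868 UMIs.

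At the edge of the rule, 157 interferon cells with exactly 2 UMIs of Cxcl10 and Ifi47 had a GTPase level of 1564 CPM, and 623 gated cells with 1 UMI had 1091. The 157 were shallow, with a median of 5607 against 11491 UMIs, since deeper cells with 2 UMIs lay under the limit per 10000. The 178 cells at 2 to 2.5 per 10000 had 2007, and the 237 cells at 1.5 to 2 had 1544. Around the EGFP limit the levels were 2816 for 145 cells just inside and 2821 for 190 cells just outside. The interferon cells thus graded into the cells below the Cxcl10 and Ifi47 limits, and the GTPase level was alike on both sides of the EGFP limit.

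Of 10291 genes with at least 5 CPM in either group, 340 (3.30%) were at least 2-fold higher in interferon cells and 163 (1.58%) at least 2-fold lower, with a median log2 ratio of -0.06. Since the cells were chosen from the same libraries that gave these ratios, the counts describe the cells and test nothing. The genes highest by ratio, at 20 CPM or more, were Serping1, which inhibits complement C1, then Kcne1l, Ubd, Gbp4, Sostdc1, Gbp10, Col3a1, Iigp1, Ccl8, Gbp2, Gm4951, Cxcl1, Gbp5, Phf11d and Rarres2. Of these, Col3a1, Ccl8, Sostdc1 and Phf11d were leading genes of a cluster, described below, with 4.64% of interferon cells and 0.679% of comparison cells. Kcne1l was a leading gene of a cluster with 15.5% and 0.905%. The part of cluster make-up in these ratios was not tested. Serping1 stood at 22.1 against 1.59 CPM, 13.9-fold higher. Ubd, a ubiquitin-like modifier induced by interferon gamma, stood at 22.8 against 1.79. Without cells that held at least 3 UMIs of another cell type's markers, which left 230 interferon cells, Col3a1 went from a log2 ratio of 3.28 to -0.29, Ccl8 from 3.14 to 0.29, Ubd from 3.67 to 0.79 and Rarres2 from 2.78 to 0.93.

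**Figure D1:**
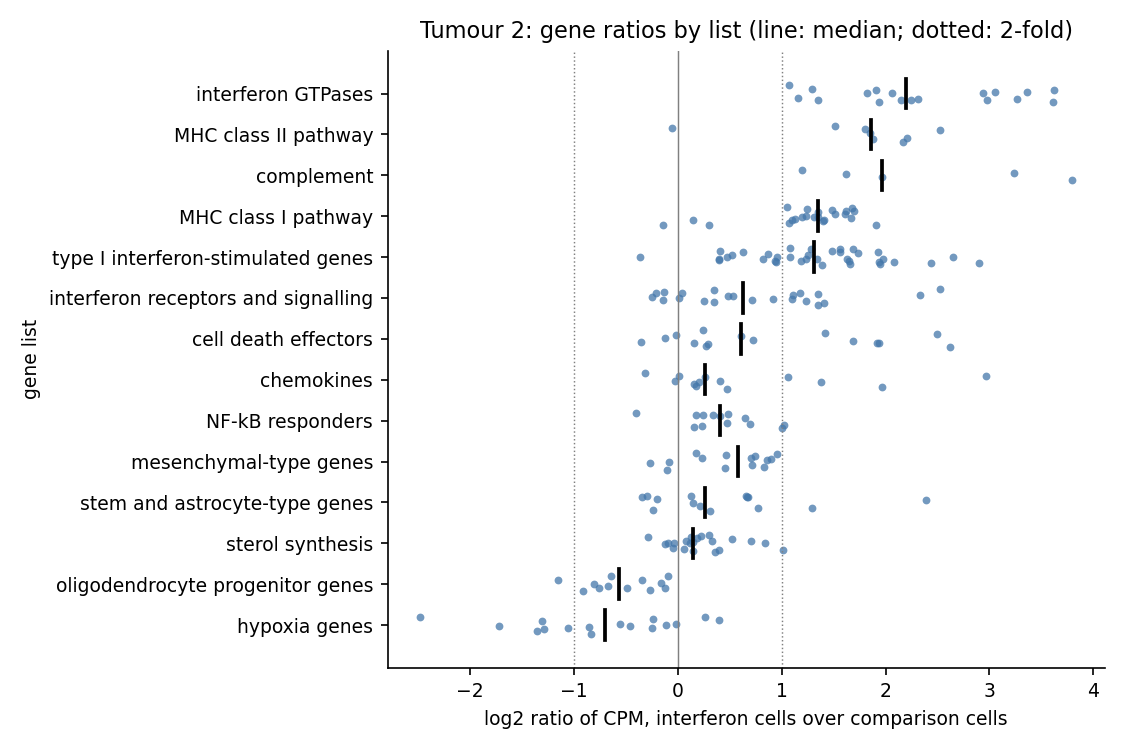
Each point is 1 gene, placed by the log2 ratio of its CPM in interferon cells over comparison cells of tumour 2, in 14 gene lists; black lines are list medians and dotted lines mark 2-fold. All 18 interferon GTPase genes lie right of the 2-fold line, while hypoxia genes have a median of -0.70.

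All 18 of the 20 interferon GTPase genes found that had enough UMIs were at least 2-fold higher, with a median log2 ratio of 2.20. These proteins attack the membranes of vacuoles that hold intracellular microbes. Gbp2, a guanylate-binding protein, stood at 555 CPM (548 to 561) in interferon cells and 66.9 (59.98 to 74.5) in comparison cells, 8.28-fold higher. After thinning to 5000 UMIs it was seen in 58.9% of interferon cells and 15.8% of comparison cells. Gbp4 was 12.3-fold higher at 113 CPM, and Iigp1, an immunity-related GTPase, 9.61-fold higher at 354 CPM. The list was not evenly higher. Igtp, already at 290 CPM in comparison cells, was 3.75-fold higher at 1087, and Irgm1, a regulator of the other family members, was 2.10-fold higher at 443, with a log2 ratio of 0.98 as a mean over cells and 0.88 without cells holding other types' markers. Reads of near-identical copies (Tgtp1 and Tgtp2, Ifit3 and Ifit3b, Iigp1 and Gm4951, Oas1a and Oas1g, H2-Q6 and H2-Q7) may be split between them, so values of those genes are uncertain.

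Genes usually ascribed to type I interferon were higher in 24 of 36, with a median of 1.31. Phf11d was 7.47-fold higher (61.0 against 8.17 CPM). The nucleic-acid sensor Zbp1 stood at 237 against 56.0 CPM and Ifit3, which binds foreign RNA, at 258 against 83.5. Isg15, a ubiquitin-like modifier, stood at 971 against 255, the tethering factor Bst2 at 1366 against 410, and Ifitm3, which blocks virus entry, at 2614 against 827. Oasl2 (log2 ratio 1.64) and Ifi44 (1.95) were past 2-fold too. Other members of the list, Ifit1 (0.96), Ifit2 (0.52), Eif2ak2 (0.40) and Rtp4 (0.39), lay under 2-fold. Ifit1 was marginal, at 1.01 as a mean over cells and 1.09 without the highest Scrublet scores. Ifi27 stood at 505 against 651 CPM.

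Among receptors and signalling genes, 9 of 22 were higher, with a median of 0.62. Transcription factors of the response were among them. Irf1, an early interferon target, stood at 187 against 79.5 CPM, Irf8 at 161 against 60.6, Irf7 at 118 against 46.4 and Batf2 at 24.1 against 4.78. Socs1, a feedback inhibitor of the JAK kinases, was 2.26-fold higher, while the related Socs3 stood at 172 against 203 CPM. As a mean over cells Irf8 (log2 ratio 0.79) and Irf7 (0.92) lay under 2-fold, as did Socs1 (0.63) without cells holding other types' markers. None of the receptors reached 2-fold. Ifngr1 stood at 29.7 against 32.7 CPM, Ifnar1 at 13.1 against 15.1 and Ifnar2 at 56.6 against 55.0, all near the comparison level. Ifngr2 was higher, at 25.04 against 17.3 CPM (log2 ratio 0.53).

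Ifng, which encodes interferon gamma, had 1.04 CPM (0.761 to 1.38) in interferon cells, from 47 UMIs, and 2.39 (1.24 to 4.18) in comparison cells, from 12 UMIs. In the T-cell gate it had 366 CPM (353 to 380), in 35.7% of 445 cells. Ifnb1, a type I interferon gene, had 5 UMIs in all interferon cells and none in comparison cells, where a count of 0 allows up to 0.598 CPM. The Ifng level of the T-cell gate was far above that of either kind of glioma cell. The gates asked for at least 3 Cd3 UMIs in the T-cell gate and none in the glioma cells, so they themselves separate T-cell RNA.

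The MHC class I pathway, which loads peptides for CD8 T cells, was higher in 20 of 23 genes, with a median of 1.35. B2m, the invariant light chain, stood at 2474 against 1052 CPM, and the heavy chains H2-K1 at 2579 against 973 and H2-D1 at 3057 against 1397. The immunoproteasome subunits Psmb8 and Psmb9 were 3.08-fold and 2.80-fold higher, the peptide transporter Tap1 3.06-fold, and Nlrc5, the transactivator of this pathway, stood at 20.9 against 8.17 CPM. Nlrc5 lay under 2-fold as a mean over cells (log2 ratio 0.88), and B2m (0.91) and H2-D1 (0.80) without cells holding other types' markers. The 3 genes under 2-fold were the general chaperones of the endoplasmic reticulum, Calr, Pdia3 and Canx (714 against 645, 267 against 216 and 179 against 197 CPM).

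MHC class II genes present antigen to CD4 T cells. Of the 11 found, 8 had enough UMIs, and 7 of these were higher, with a median of 1.86. H2-DMb2, H2-Oa and H2-Ob stayed under 5 CPM in both groups, and none of them was 2-fold higher. Ciita, the master regulator of these genes, stood at 6.89 against 1.20 CPM, so it passed the 5 CPM filter only through the interferon cells. The invariant chain Cd74 stood at 616 against 216 CPM, H2-Aa at 376 against 103, H2-Ab1 at 582 against 167 and H2-Eb1 at 499 against 111. As a mean over cells, which gives deep cells no more weight than shallow ones, Cd74 had a log2 ratio of 0.52 in place of 1.51 and H2-Aa 0.89 in place of 1.88, both under 2-fold. Ciita had 0.54 without cells holding other types' markers. The protease Ctss stood at 70.4 against 73.1. Macrophages express these genes at far higher levels: Cd74 reached 9662 CPM in the macrophage gate, and stood at 461 in the T-cell gate. The 12 macrophage markers summed to 343 CPM in interferon cells and 364 in comparison cells, with 4 of 12 higher and none at 0, and 795 in the T-cell gate. Cd74 per UMI of the macrophage gene Tyrobp was 8.74 in interferon cells, 2.51 in comparison cells, 6.33 in the T-cell gate and 3.30 in the macrophage gate. Per UMI of Lyz2, another macrophage gene, it was 6.03, 3.07, 4.57 and 2.76. Both ratios were higher still in EGFP cells past the cartilage limit (9.96 and 6.75) and past the mitotic limit (9.52 and 7.36). A high ratio was thus not particular to the interferon cells. At least 3 macrophage-marker UMIs were held by 70.3% of interferon cells and 56.8% of comparison cells, at unequal depth, and the rule itself limits C1q. The part of macrophage RNA in the class II levels was not tested.

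Chemokines outside the rule were higher in 4 of 13, with a median of 0.26. Cxcl1, which draws neutrophils, stood at 34.3 against 4.38 CPM, Ccl2, which draws monocytes, at 111 against 28.5, and Ccl7 at 12.9 against 6.18. Ccl2 had a log2 ratio of 0.81 as a mean over cells and -0.57 without cells holding other types' markers, and Ccl7 0.43 as a mean over cells and 0.05 in cells of 10000 to 30000 UMIs. Cxcl9 stood at 56.9 against 21.9 CPM and at 1028 in the macrophage gate. After thinning it was seen in 10.7% of interferon cells and 11.8% of comparison cells, so the share of cells with the gene was not higher while its summed level was, and its log2 ratio was 0.70 as a mean over cells and 0.98 without the highest Scrublet scores. Ccl5 stood at 130 against 129 CPM in all cells, but its log2 ratio was 2.08 without the clusters led by neutrophil or NK genes and 2.24 in cells of 10000 to 30000 UMIs. These 2 settings and the summed ratio thus give different pictures of Ccl5.

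Adhesion and checkpoint genes were higher in 5 of 14, with a median of 0.06. The adhesion molecules Icam1 and Vcam1 stood at 22.2 against 5.38 and 75.6 against 19.7 CPM, the galectin Lgals9 at 76.2 against 24.7, and Cd274, which encodes PD-L1, at 16.7 against 8.17. The Cd274 call was marginal: its log2 ratio of 1.03 was 0.61 as a mean over cells, 0.80 without the highest Scrublet scores, 0.94 at an EGFP minimum of 50 and 0.93 without cells holding other types' markers. Cell death effectors were higher in 6 of 15, with a median of 0.61. The inflammatory caspases Casp1 (37.9 against 6.18 CPM) and Casp4 (30.9 against 8.17), the necroptosis effector Mlkl (30.6 against 7.97) and the pore former Gsdmd (16.7 against 5.18, but a log2 ratio of 0.69 as a mean over cells) were among them. All 5 complement genes with enough UMIs, of 11 found, were higher, with a median of 1.97, C4b at 430 against 188 CPM. NF-kB responders were higher in 2 of 13, with a median of 0.41, and cell-cycle genes outside the rule and p53 targets in 0 of 23 and 0 of 9. Stress genes were higher in 0 of 14 (median -0.15), stem and astrocyte-type genes in 2 of 14 (0.26) and neuroblast genes in 0 of 6 (-0.29). Cartilage genes outside the rule had 1 higher and 1 lower of 13 (-0.44).

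The lists also followed the amount of Cxcl10 and Ifi47 within the interferon cells. This amount is the sum that chose the cells, and Ifi47 is itself a GTPase of this family, though outside the list. The grading is thus a description and tests nothing. The GTPase level was 926 CPM in comparison cells, 1257 in the cells between, 2413 in the 807 members at 2 to 5 per 10000, 3770 at 5 to 10, 4658 at 10 to 20, 4547 at 20 to 40, and 5299 in the 227 cells at 40 or more. The MHC class II level was 758 CPM in comparison cells and 3514 in the highest group. The hypoxia list instead stepped down once, from 2107 CPM between to 1679 at 2 to 5, and lay between 1585 and 1711 beyond. EGFP moved with the grade too, with a median of 52.8 in comparison cells, 76.6 at 2 to 5 and 199 at 40 or more, and its part in the differences was not tested.

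**Figure D2:**
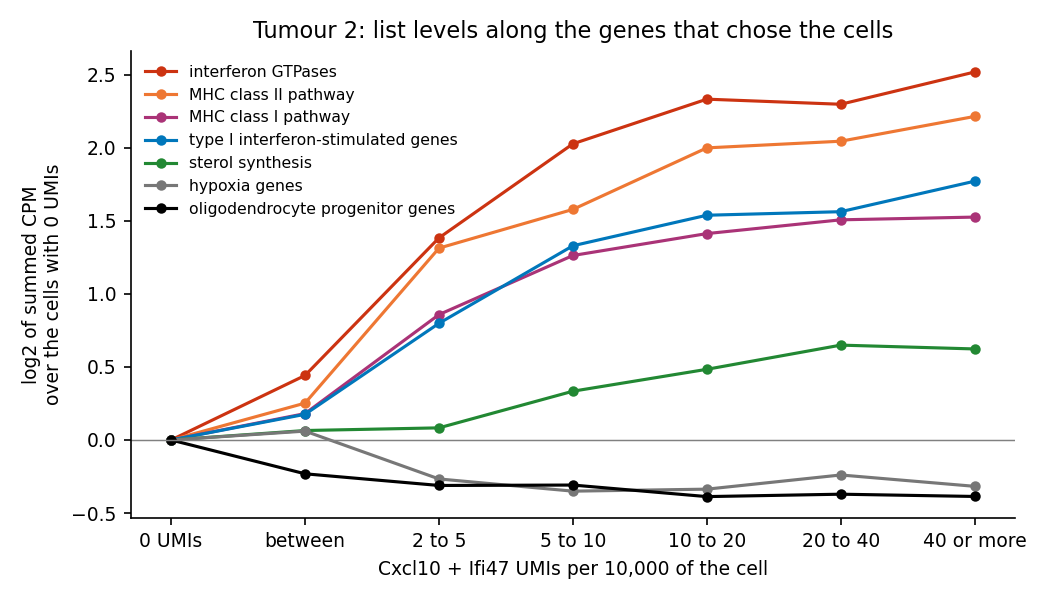
The log2 of the summed CPM of 7 gene lists over their level in the comparison cells (vertical) is plotted for cells grouped by UMIs of Cxcl10 and Ifi47 per 10000 (horizontal). GTPase genes climb from 926 to 4658 CPM by the group at 10 to 20 and lie between 4547 and 5299 CPM after it, while hypoxia and oligodendrocyte progenitor genes lie below 0 in every group of interferon cells.

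Fdps, the synthase of farnesyl diphosphate in the mevalonate pathway, stood at 596 CPM (588 to 603) in interferon cells, 362 in the cells between and 295 (281 to 311) in comparison cells, 2.02-fold higher. It was the only 1 of 21 sterol synthesis genes past 2-fold, and the list's median was 0.15. Its log2 ratio of 1.01 was under 2-fold as a mean over cells (0.76), in cells of 10000 to 30000 UMIs (0.85) and without cells holding other types' markers (0.96). When the 3865 gated cells were clustered without the rule's genes and the immune lists, 1 cluster of 356 cells was led by the long non-coding RNA Gm7967, Gtdc1, Kcne1l, Dmrtb1 and Fdps. It held 342 interferon cells, 4 comparison cells, and 12641 of the 27041 Fdps UMIs of all interferon cells.

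In that cluster Fdps stood at 1367 CPM (1343 to 1391), with a median of 11.9 per 10000 in a cell. In the other 1858 interferon cells it stood at 398 (392 to 405), 1.35-fold the comparison level, with a median of 2.38 per cell. Other steps of the pathway were uneven. Pmvk, phosphomevalonate kinase, stood at 352 CPM in the cluster, 142 in the other interferon cells and 114 in comparison cells, and the sterol dehydrogenase Nsdhl at 104, 35.4 and 27.5. Hmgcs1, an early synthase of the pathway, stood at 123, 133 and 134. The list of sterol uptake, sensing and efflux was higher in 0 of 15 genes, with Abcg1, a sterol exporter, lower, and fatty acid synthesis in 0 of 10. Fdps was used in the clustering, so its level in this cluster is a description of the cluster.

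The genes described next were among those that led the cluster and were named after their values were seen. Gm7967 (chr1:98589517-98607384, plus strand) stood at 74.2 CPM in it and 10.2 in the other interferon cells. Gtdc1 (chr2:44564412-44927657, minus strand) stood at 74.2 and 10.4, and its neighbour Arhgap15 (chr2:43748824-44395953, plus strand) at 87.7 and 21.4. Kcne1l (chrX:142304752-142306294, minus strand) stood at 75.6 and 16.1, and Fdps lies at chr3:89093588-89101959 on the minus strand. These coordinates are of mm10.

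Lower genes included parts of 2 lists. In the hypoxia list 6 of 16 genes were lower and none higher, with a median of -0.70. The carbonic anhydrase Car9 stood at 3.26 against 18.1 CPM, the glucose transporter Slc2a1 at 26.7 against 68.1, Vegfa at 19.4 against 47.4, Ero1l at 19.5 against 48.2 and Adm at 4.54 against 14.9. At an EGFP minimum of 50 the median was -0.10. These 5 genes were still more than 2-fold lower there, with Ero1l nearest to the limit (log2 ratio -1.19). Egln3, the other lower gene, went from -1.06 to -0.12. Without cells holding other types' markers the 5 genes lay under 2-fold, with log2 ratios from -0.19 (Ero1l) to -0.76 (Adm). Oligodendrocyte progenitor genes had a median of -0.57, with all 12 below 0 but only Pdgfra past 2-fold, at 100 against 223 CPM. Its log2 ratio of -1.16 was -0.84 as a mean over cells and -0.98 both in cells of 10000 to 30000 UMIs and without cells holding other types' markers. The lineage factors Olig1 (1013 against 1133) and Sox10 (212 against 226) were near the comparison level, and Sox2 stood at 255 against 292.

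The genes lowest by ratio at 20 CPM or more were Retnlg, Chgb, Meox1, S100a9, S100a8, Angptl1, Lpo, C1ql2, Ifitm1, Mia, Trnp1, Wfdc17, Eya1, Adora1 and Mybpc1. Of these, Meox1, Angptl1, C1ql2, Lpo and Adora1 were leading genes of a cluster with 28.3% of comparison cells and 11.5% of interferon cells. Mybpc1 was a leading gene of a cluster with 20.4% and 12.9%. The part of cluster make-up in these ratios was not tested. Retnlg, S100a9 and S100a8 are neutrophil genes. The 4 neutrophil markers summed to 95.2 CPM in interferon cells and 421 in comparison cells. After thinning, S100a8 was seen in 3.37% and 3.11% of cells, so few cells carried the difference. Without the clusters led by neutrophil or NK genes its log2 ratio went from -2.10 to 0.06, and in cells of 10000 to 30000 UMIs it was 2.25, with S100a9 at 2.53 and Retnlg at 2.02. Ifitm1 went from -1.66 to 0.74 at an EGFP minimum of 50, and Lpo from -1.89 to -0.15 without cells holding other types' markers. The lower level of the neutrophil genes thus rested on few cells.

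The 11 clusters held interferon cells in very unequal shares. They were 96.1% of the cells in the Fdps cluster, 95.3% of the 107 cells of a cluster led by Col8a1 and Col1a2, and 76.7% of 546 cells led by Sfrp5, Scn7a, Matn2 and Postn. They were 37.9% of 670 cells led by Meox1 and Angptl1 and 38.6% of 734 cells led by Wfdc12. A cluster led by haemoglobin genes was shallow, with a median of 2457 UMIs, and stays unnamed. The others were led by Hmga2 and Clic5, Lcn2 and Aqp4, Ndn, S100a9 and S100a8, and the myelin genes Mag and Enpp6. The myelin cluster held 104 interferon cells, with 949 CPM of Mag and 3342 of Mbp in them. The S100a9 cluster held 54, with 1236 CPM of the NK marker Nkg7 and 3219 of Cd74. Leading genes of these clusters were those of oligodendrocytes and immune cells, and whether their cells are glioma cells was not tested.

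The interferon genes were present in all of these clusters but at unlike levels. The GTPase level of the interferon cells ranged from 2544 to 7739 CPM over the 11 clusters, all above the 926 of all comparison cells. The Col8a1 cluster was highest, with 2641 CPM of Gbp2 and 5861 of B2m, and it had 129 CPM of Fdps and a median EGFP level of 520. Gbp2 was only 96.0 CPM in the Meox1 cluster. B2m stood at 1141 CPM in the Wfdc12 cluster and 1123 in the Ndn cluster. The highest Fdps and the highest Gbp2, B2m and GTPase levels therefore lay in different clusters. Not all interferon genes were highest in the Col8a1 cluster. Igtp was level, at 1366 CPM in the Fdps cluster and 1363 in the Col8a1 cluster. MHC class II genes were higher in the Fdps cluster, at 3043 against 1939 CPM.

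**Figure D3:**
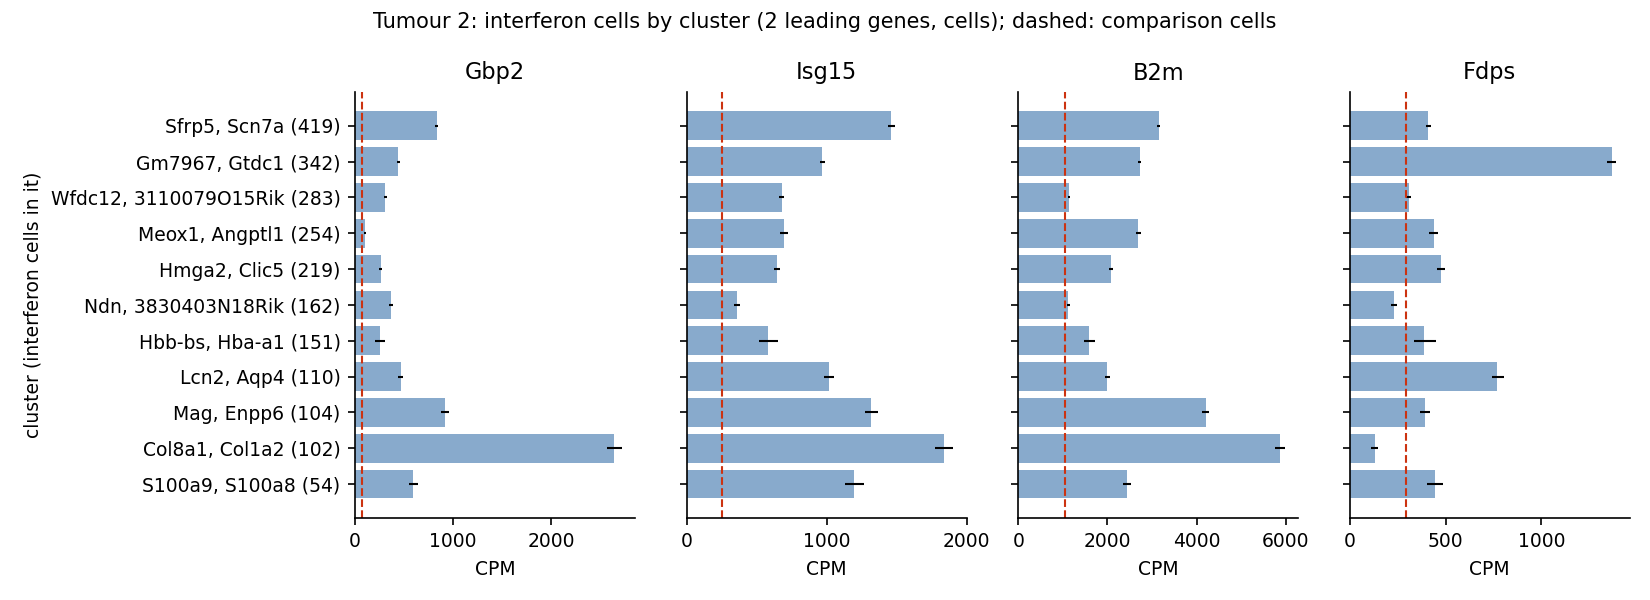
Bars give the CPM of Gbp2, Isg15, B2m and Fdps summed over the interferon cells of each of the 11 clusters, named by 2 leading genes; error bars are 95% Poisson intervals and the dashed line is the level of all comparison cells. Gbp2 and B2m peak in the Col8a1 cluster and Fdps in the Gm7967 cluster.

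In 3 clusters at least 50 cells of each kind allowed a comparison inside the cluster, which was added after seeing the data. In the Meox1 cluster (254 interferon against 125 comparison cells) 3.50% of genes were at least 2-fold higher, with 14 of 16 GTPases (median 2.00), 19 of 33 type I genes, 16 of 23 MHC class I genes and 7 of 8 class II genes. In the Wfdc12 cluster (283 against 90) the share was 2.74%, with 13 of 16 GTPases (median 2.08) and 17 of 23 MHC class I genes. The hypoxia median was -0.06 and -0.18 inside these clusters and no sterol gene passed 2-fold. In the shallow haemoglobin cluster (151 against 97) 10.3% of genes were higher, with 10 of 18 GTPases (median 1.17), but only 4 of 23 MHC class I genes and 0 of 10 class II genes. The GTPase and MHC ratios were thus close to those over all cells inside the deeper 2 clusters, and the hypoxia ratio was not.

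Cells outside the gates also met the Cxcl10 and Ifi47 minimum. They were 26.7% of 663 EGFP cells with cartilage genes, 52.3% of 755 mitotic EGFP cells, 42.2% of 445 T-cell gate cells and 48.9% of 1203 macrophage gate cells. The minimum was thus met outside the gated glioma cells too. The GTPase level was 1749 CPM in all cartilage-gene cells, 2056 in all mitotic cells, 647 in the T-cell gate and 1199 in the macrophage gate, against 3673 in the interferon cells, which unlike these gates were chosen for the response.

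The same rule in tumour 1 gave 1588 interferon cells, 17.1% of its 9287 EGFP cells and 25.9% of its 6137 gated cells, and 1845 comparison cells. There 8.51% of 11069 genes were at least 2-fold higher and 0.334% lower. All 18 GTPase genes were higher in tumour 1 as well (median 2.60), with 35 of 37 type I genes (2.19), 20 of 23 MHC class I genes (1.40) and 7 of 8 class II genes (1.61). Gbp2 had a log2 ratio of 4.10 in tumour 1 and 3.05 in tumour 2. B2m was 2.13-fold and 2.35-fold higher.

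Several lists had unlike counts in the 2 tumours, which was not tested. All 12 mesenchymal-type genes with enough UMIs were at least 2-fold higher in tumour 1 (median 1.99) and 0 of 14 in tumour 2 (0.58). NF-kB responders were higher in 8 of 12 and 2 of 13. Slc2a1 had a log2 ratio of 1.13 in tumour 1 and -1.35 in tumour 2, and Vegfa of 0.73 and -1.29. Fdps stood at 143 against 121 CPM in tumour 1 and no sterol gene passed 2-fold. Ifng in the T-cell gate was 945 CPM in tumour 1, in 70.6% of cells. With 1 library each, tumour, host and library cannot be told apart.

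**Figure D4:**
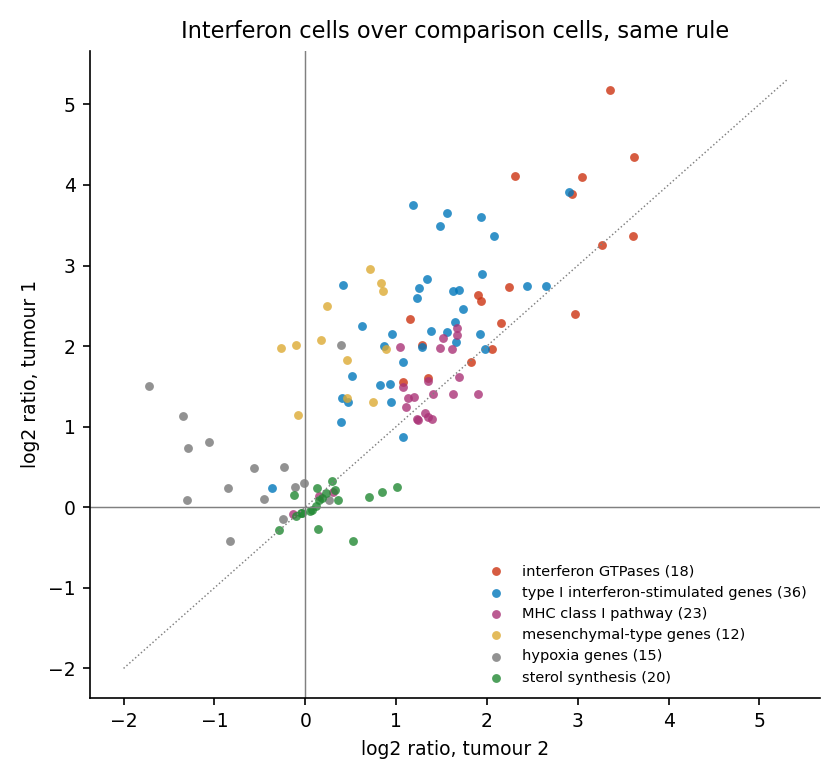
Each point is 1 gene, with its log2 ratio of interferon over comparison cells in tumour 2 (horizontal) and tumour 1 (vertical) for 6 lists; the dotted line marks equal ratios. GTPase, type I and MHC class I genes with few exceptions lie above 0 in both tumours, mesenchymal-type genes lie above the line, and sterol synthesis genes stay near 0 apart from Fdps and few others in tumour 2.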

How the data were processed

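The deposited files hold raw UMI counts per gene and barcode of 2 libraries, 1 per tumour, from the 10x 3' kit V2. Per the labels' processing notes the authors used Cell Ranger 4.0.0 and Seurat on mm10. The EGFP, tdTomato, Cas9 and luciferase features were kept out of the mouse-gene totals. The cells and the gene lists were chosen with earlier results of these data known. UMIs were summed over the cells of a group and scaled to 1000000 (CPM); genes with at least 5 CPM in either group were compared, and called at 2-fold. Named genes were the 15 with the highest and lowest ratios at 20 CPM or more in either group, and the list members. No test was run, since each tumour is 1 library. Shares of cells were also taken after thinning to 5000 UMIs, leaving out 182 interferon and 120 comparison cells. The gated cells were clustered on 2000 genes (20 components, Leiden resolution 0.6), without the rule's genes and the immune lists. Sequences and motifs came from RefSeq promoters. Versions were Python 3.11.15, numpy 2.4.6, scipy 1.17.1, scanpy 1.11.5 (with Scrublet) and matplotlib 3.10.9. The counting was tested on simulated data. Some list members are counted in their lists but not reported here by name.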

Additional observations from a re-analysis of the deposited data

Results flagged for a closer look

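The counts of the introduced sequences were not used to compare the cells, beyond EGFP. The joint Cas9 and luciferase feature had 265 UMIs in the interferon cells, 5.84 CPM, in 9.82% of cells. It had 7.77 CPM in comparison cells, 0.488 in the T-cell gate, 0.293 in the macrophage gate and 0.633 in the EGFP cells with cartilage genes, so it did not follow EGFP in every kind of EGFP cell. The T-cell and macrophage gates held only cells under the EGFP minimum. The separate luciferase feature had 5 UMIs (0.110 CPM) in interferon cells and 0 in comparison cells, where a count of 0 allows up to 0.598. The host label tdTomato had 26 UMIs, 0.573 CPM, in interferon cells, 1.20 in comparison cells, 0.366 in the T-cell gate and 0.330 in the macrophage gate.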

How the results depend on the processing

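Over 17 other settings, 3 of them (leaving out clusters) chosen after seeing the data, the interferon GTPases at least 2-fold higher numbered 14 to 19 and the MHC class I genes 14 to 20. Single genes changed sign: without cells holding 3 UMIs of another type's markers Col3a1 (-0.29) and Ccl2 (-0.57) turned, in cells of 10000 to 30000 UMIs S100a8 (2.25) and Retnlg (2.02), and at an EGFP minimum of 50 Ifitm1 (0.74). Col3a1 had only 14 UMIs in all 442 comparison cells, so its turn rests on few UMIs. The medians stayed above 0 for GTPases (1.75 to 2.65), MHC class I (1.13 to 1.46) and class II (1.13 to 2.14), and below 0 for hypoxia (-0.74 to -0.10), while the mesenchymal-type median ran from -0.13 to 0.91. Values that moved are these. With an EGFP minimum of 50 there were 1608 interferon cells, 514 genes higher, 275 lower and 2 sterol genes higher. At least 4 UMIs of Cxcl10 and Ifi47 left 1888 cells. Cxcl10 alone chose 1032 cells, with 520 higher, 344 lower and 2 sterol genes, and Ifi47 alone 1650 cells. A mitochondrial limit of 10% left 2062 cells. Thinning to 5000 UMIs left 2018 cells, 514 higher, 306 lower and 0 sterol genes. Cells of 10000 to 30000 UMIs numbered 1327, with 0 sterol genes. Without the highest Scrublet scores 1851 cells remained. Without cells holding 3 UMIs of another type's markers there were 230 cells, 668 higher, 787 lower and 15 type I genes. Macrophage markers alone reached 3 UMIs in 70.3% of interferon cells. All lists together did so in 89.5%, and in 346 of the 442 comparison cells. Comparison cells with no other gate gave 389 lower. A level filter of 20 CPM gave 168 higher and 51 lower, and none gave 835 and 1437. A 1.5-fold call gave 676, 739 and 3 sterol genes. The mean over cells gave 312 lower and 0 sterol genes. Leaving out the haemoglobin cluster left 2049 cells, and leaving out the Gm7967 and Fdps cluster 1858 cells and 0 sterol genes. No paired analysis was possible because each tumour is 1 library and no result comes from a test. Sums are limited by counting in rare genes and by the 442 comparison cells, which were shallower.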
